A study of Mus musculus with 4 samples.

Results

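The mesenchymal surface and caveolar genes were 10 genes known as caveolar components or as surface markers of fibroblast-like cells, and they were chosen by symbol: Cav1, Cav2, Cavin1, Pdgfrb, Axl, Osmr, Cd44, Thy1, Nt5e and Fap. The choice was made with earlier results of these data known. All 10 were found among the 55401 genes counted, and 8 of them were among the 15580 genes with enough counts for a test. RNA-seq was performed on mESCs of the mouse line E14, with 2 WT libraries and 2 Haspin-KO libraries. Haspin is the kinase that phosphorylates histone H3 at Thr3 in mitosis, and the comparison asks which transcripts differ in cells that lack it. According to the labels, both genotypes grew in knockout-DMEM with fetal bovine serum, LIF and the inhibitor pair 2i, and none received any other treatment. The Haspin-KO lines came from WT E14 cells that received a Cas9 plasmid for each of 2 gRNAs, survived puromycin and were picked as single clones negative for H3T3ph by immunostaining. No label ties a Haspin-KO library to its line, so a difference between the groups can also be a difference between clones. The methods describe passage on mitomycin C-treated mouse embryonic fibroblasts and assays on gelatin, and the surface used for the RNA libraries is not given in the sources used here.

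Caveolae are small flask-shaped pits of the plasma membrane that are abundant in fibroblasts, endothelial cells, fat cells and muscle. Caveolins sit in the inner leaflet as oligomers, and cavins coat them from the cytoplasm. The other genes encode proteins at the cell surface of mesenchymal cells: growth factor and cytokine receptors, a hyaluronan receptor, a GPI-anchored glycoprotein and 2 enzymes that face the outside of the cell. Several of them, Cd44, Thy1 and Nt5e among them, serve as surface markers of cultured stromal cells, but none belongs to fibroblasts alone.

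The counts summed to between 14207828 and 21834847 reads per library. Values below are counts, CPM (library-size scaled counts, after TMM), or the deposited FPKM, which also divides by exonic length. A library was taken to show a gene above 3 counts, a floor of 0.137 and 0.173 CPM in WT replicates 1 and 2 and of 0.209 and 0.210 CPM in Haspin-KO replicates 1 and 2. Floors and counting intervals cover counting error only. The labels do not say that the libraries came from separate cultures, so p-values measure the spread between these libraries, which may be technical. Haspin itself had 875 and 619 counts in WT and 149 and 209 counts in Haspin-KO, a log2 fold change of -1.60 with an SE of 0.16. All 12 mESC markers passed the count filter and none was called, with a summed level of 7122 and 7408 CPM in WT and 6758 and 6917 CPM in Haspin-KO.

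Printed below are sequences before RefSeq start sites of the caveolar genes and of the other 2 genes called lower. Counts per gene do not show which start site the cells used. Cav1 and Cavin1 each had another RefSeq window, which is not printed. Each line gives the 250 bases before the start site of a RefSeq transcript (GRCm38.p6, 5′ to 3′ on the strand of the gene), at chr6:17306085-17306334 (+) for Cav1, chr6:17280935-17281184 (+) for Cav2, chr11:100970618-100970867 (-) for Cavin1, chr2:102901666-102901915 (-) for Cd44 and chr7:25788734-25788983 (-) for Axl. Capitals mark matches to a motif.
Cav1: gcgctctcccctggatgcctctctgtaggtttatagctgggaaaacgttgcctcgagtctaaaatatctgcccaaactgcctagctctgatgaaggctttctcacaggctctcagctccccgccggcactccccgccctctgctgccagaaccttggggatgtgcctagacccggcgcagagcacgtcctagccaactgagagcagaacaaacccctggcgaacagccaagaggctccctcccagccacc
Cav2: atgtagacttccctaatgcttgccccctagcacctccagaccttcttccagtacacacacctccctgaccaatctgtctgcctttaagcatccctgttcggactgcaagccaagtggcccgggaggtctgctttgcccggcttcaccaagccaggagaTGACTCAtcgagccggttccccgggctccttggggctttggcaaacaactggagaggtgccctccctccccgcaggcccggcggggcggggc
Cavin1: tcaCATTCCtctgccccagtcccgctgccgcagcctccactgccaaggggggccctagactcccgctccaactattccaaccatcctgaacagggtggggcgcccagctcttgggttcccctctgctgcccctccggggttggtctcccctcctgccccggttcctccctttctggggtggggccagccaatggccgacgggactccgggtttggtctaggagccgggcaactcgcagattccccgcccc
Cd44: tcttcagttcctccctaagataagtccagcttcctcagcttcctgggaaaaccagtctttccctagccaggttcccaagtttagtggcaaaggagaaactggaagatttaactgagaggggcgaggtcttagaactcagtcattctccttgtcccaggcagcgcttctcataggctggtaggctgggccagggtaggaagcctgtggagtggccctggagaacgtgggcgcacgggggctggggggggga
Axl: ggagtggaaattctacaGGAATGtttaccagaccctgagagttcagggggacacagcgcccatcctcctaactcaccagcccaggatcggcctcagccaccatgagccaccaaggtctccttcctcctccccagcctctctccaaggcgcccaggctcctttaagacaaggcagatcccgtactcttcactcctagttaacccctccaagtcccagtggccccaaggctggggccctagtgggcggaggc
RefSeq windows were found for 7 of the 10 genes, these 5 and Nt5e and Osmr, and not for Thy1, Pdgfrb and Fap. The motifs were searched on both strands: TGANTCA, the AP-1 element, GGAATG, the TEAD element, and the CArG box, the element of serum response factor. The AP-1 element occurred in 6.75% of all 32851 windows of the same length, the TEAD element in 12.6% and the CArG box in 1.47%. Cav2 had an AP-1 match 92 bases before its start. Axl had a TEAD match 233 bases before its start. Cavin1 had a TEAD match on the opposite strand, 247 bases before the RefSeq start used here and 249 bases before another. The windows of Cavin1, Nt5e and Osmr lay inside the annotated spans of their genes, so they precede a RefSeq start but not the annotated gene start. No match was found in the windows of Cav1, Cd44, Nt5e and Osmr. The matches did not overlap each other, and they describe letters, not binding.

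Of the 8 genes tested, 3 were called lower in Haspin-KO (Cav1, Cd44 and Axl), where 0.501% of all genes tested were called lower. A call required a Benjamini-Hochberg adjusted p under 0.05 in edgeR's quasi-likelihood test and a fold change over 2. None of the 8 was called higher, where 0.327% of all genes tested were. At an unadjusted p under 0.05, 6 of the 8 were lower, beside 10.4% of all genes tested, and 0 were higher, beside 10.4%. DESeq2 and limma also called 0 higher. Without the minimum fold change, Cavin1 and Pdgfrb joined the calls, which made 5 of 8 beside 1.51% of all genes tested. In 6 of the 8, both Haspin-KO libraries lay below both WT libraries, as in 26.9% of all genes tested. The exceptions were Thy1 and Nt5e, whose libraries overlapped. The median log2 fold change of the 8 genes was -1.20, beside -0.0039 for all genes tested. Cav1 and Osmr passed the count filter through the WT libraries alone, so that their place among the 8 already depended on WT. The 10 genes were also chosen with earlier results of these data known. For both reasons these counts and medians are descriptions. Without WT replicate 1 the only call was Cav1, and without WT replicate 2 the calls were Cav1 and Axl. All 3 genes were still called when either Haspin-KO library was left out.

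**Figure D1:**
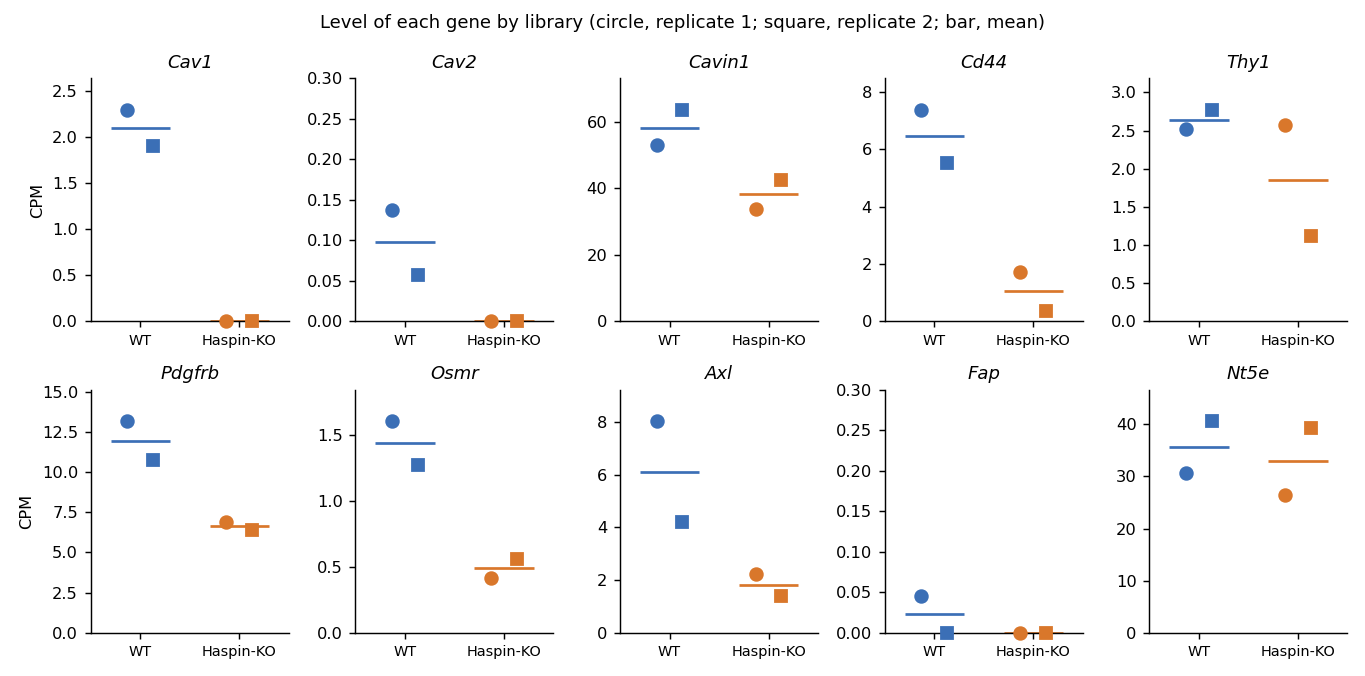
Level of each of the 10 genes in CPM (vertical axis, a separate linear scale from 0 for each gene) in the WT and Haspin-KO libraries, with circles for replicate 1, squares for replicate 2 and bars for the mean. Cav1 is at 0 in both Haspin-KO libraries, the Haspin-KO points of Thy1 and Nt5e overlap those of WT, and Cav2 and Fap lie at or under the 3-count floor.

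Cav1 encodes caveolin-1, the structural protein without which non-muscle caveolae do not form (ENSMUSG00000007655, chr6:17306335-17341452, + strand, mm10). Cav1 had 50 and 33 counts in the WT libraries and 0 and 0 counts in the Haspin-KO libraries, or 2.29 and 1.904 CPM against none. The groups did not overlap, and every Cav1 read of the experiment came from WT. Set against the floor of 3 counts per library, the WT mean of 2.10 CPM ± 0.272 (SD, n = 2) was at least 10.01-fold higher than Haspin-KO. The edgeR quasi-likelihood test gave Cav1 a Benjamini-Hochberg adjusted p of 0.00479. Its fitted log2 fold change of -8.16 (SE 0.93) depends on the prior count and is no bound. The level was low even in WT, with an FPKM of 0.66 and 0.55.

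Cav2 encodes caveolin-2, which assembles with caveolin-1 and depends on it to reach the cell surface (ENSMUSG00000000058, chr6:17281185-17289115, + strand). The pair are neighbours on chromosome 6, with 17219 bases and 0 annotated genes between the end of Cav2 and the start of Cav1. Cav2 had 3 and 1 counts in WT and 0 and 0 counts in Haspin-KO. All 4 libraries were at or under the floor, so Cav2 was not tested and no fold is given. Its FPKM in the WT libraries was 0.04 and 0.02, while that of Cav1 was 0.66 and 0.55. A difference in Cav2 was not detectable at this depth.

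Cavin1 encodes the coat protein that stabilizes caveolin at the membrane and was first described as a factor of transcript release (ENSMUSG00000004044, chr11:100956733-100970887, - strand). Its counts were 1159 and 1102 in WT and 487 and 608 in Haspin-KO. In CPM these were 53.1 and 63.6 in WT and 33.9 and 42.6 in Haspin-KO, so the groups did not overlap. The mean was 58.3 CPM ± 7.43 (SD, n = 2) in WT and 38.2 CPM ± 6.13 in Haspin-KO, or 65.6% of WT. Cavin1 changed by a log2 fold of -0.61 (SE 0.13), with an adjusted p of 0.0442 in edgeR (Benjamini-Hochberg) and a fold change under 2. Without WT replicate 1 the edgeR adjusted p of Cavin1 was 0.0545, and without WT replicate 2 it was 0.178. Unlike Cav1, Cavin1 was thus well above the floor in each Haspin-KO library.

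The deposited table gives Cav1, Cav2 and Cavin1 the term caveola, which 0.334% of the genes tested carry. EHD ATPases, pacsins, dynamin and tissue-specific cavins have also been linked to caveolae, and 10 of 11 such partners were tested. Cavin2, a cavin that binds phosphatidylserine and is prominent in endothelium, was the 1 partner called lower, and none was called higher. Cavin2 had 28 and 37 counts in WT and 1 and 0 counts in Haspin-KO, so it passed the count filter through the WT libraries alone. Its mean fell from 1.71 CPM ± 0.603 (SD, n = 2) to 0.0348 CPM ± 0.0492, and the ratio of the pooled CPM was 47.5 with a counting interval of 8.23 to 1905. The adjusted p was 0.0133 in edgeR (Benjamini-Hochberg). Ehd2, the ATPase that anchors caveolae, had 109 and 60 counts in WT and 40 and 18 counts in Haspin-KO, and its adjusted p in edgeR was 0.143. The 4 most abundant partners were Ehd1, Dnm2, Pacsin2 and Ehd4, which serve endocytosis and recycling in many cells. Ehd1 had 216.6 CPM in WT and 213.0 CPM in Haspin-KO, and Dnm2 had 152.1 and 149.0 CPM. The muscle caveolin Cav3 had 0 counts in all 4 libraries. The median log2 fold change of the 10 partners was -0.17.

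Pdgfrb encodes the receptor for PDGF-BB and PDGF-DD that drives the growth of pericytes and fibroblasts (ENSMUSG00000024620). It had 287 and 186 counts in WT and 99 and 91 counts in Haspin-KO. Both WT libraries, at 13.1 and 10.7 CPM, lay above both Haspin-KO libraries, at 6.89 and 6.37 CPM. The mean was 11.9 CPM ± 1.70 (SD, n = 2) in WT and 6.63 CPM ± 0.367 in Haspin-KO, or 55.6% of WT. For Pdgfrb the log2 fold change was -0.85 (SE 0.18), with an adjusted p of 0.0392 by edgeR with Benjamini-Hochberg adjustment and a fold change under 2. Leaving out WT replicate 1 gave an edgeR adjusted p of 0.239, and leaving out WT replicate 2 gave 0.0782. Of the 5 genes for PDGF ligands and the other receptor, 4 were tested and none was called in either direction, with a median log2 fold change of 0.23. The related receptor Pdgfra, a marker of mesenchyme and of primitive endoderm, had 39 and 30 counts in WT and 46 and 16 counts in Haspin-KO. The most abundant ligand Pdgfa had 95.3 CPM in WT and 104.1 CPM in Haspin-KO, and Pdgfc had 24.5 and 27.3 CPM.

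Axl encodes a receptor tyrosine kinase of the TAM family that binds Gas6 and takes part in cell survival and the uptake of dying cells (ENSMUSG00000002602, chr7:25757273-25788705, - strand). It had 175 and 73 counts in WT and 32 and 20 counts in Haspin-KO. Each WT library, at 8.01 and 4.21 CPM, exceeded each Haspin-KO library, at 2.23 and 1.40 CPM, but the WT libraries lay further from each other than the lower WT library lay from Haspin-KO replicate 1. The mean was 6.11 CPM ± 2.69 (SD, n = 2) in WT and 1.81 CPM ± 0.585 in Haspin-KO, a 3.37-fold difference. The log2 fold change was -1.76 (SE 0.37), with an adjusted p of 0.0399 in edgeR (Benjamini-Hochberg). The call of Axl ended without WT replicate 1, where the log2 fold change was -1.21 and the edgeR adjusted p was 0.248. With library totals in place of TMM the edgeR adjusted p was 0.0520. None of the 4 other TAM receptors and ligands was called. The ligand Pros1 rose from 42.1 CPM ± 2.56 (SD, n = 2) to 72.8 CPM ± 9.23, with a log2 fold change of 0.79 and an adjusted p of 0.00776 in edgeR, but under the fold of 2. The receptor Tyro3 had 104.2 CPM in WT and 85.4 CPM in Haspin-KO, Gas6 had 21.0 and 20.8 CPM, and Mertk had 2.76 and 2.65 CPM, and their adjusted p in edgeR was 0.0845, 0.973 and 0.931.

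Osmr encodes the receptor chain that pairs with gp130 to bind oncostatin M (ENSMUSG00000022146, chr15:6813577-6874969, - strand). It had 35 and 22 counts in WT and 6 and 8 counts in Haspin-KO, or 1.60 and 1.27 CPM against 0.418 and 0.560 CPM. The groups did not overlap, and the mean of 0.489 CPM ± 0.101 (SD, n = 2) in Haspin-KO was 34.1% of the WT mean of 1.44 CPM ± 0.236. The log2 fold change was -1.55 (SE 0.43), and the adjusted p of 0.0891 in edgeR (Benjamini-Hochberg) missed the threshold. Without a count filter, edgeR gave Osmr an adjusted p of 0.0285, and with counts thinned to the smallest library total it gave 0.155. DESeq2 gave Osmr an unadjusted p of 0.0539 and no adjusted p. Leaving out each library moved the log2 fold change of Osmr between -1.78 and -1.35. Of the 16 other genes of the oncostatin M and IL-6 family, 14 were tested and none was called, with a median log2 fold change of 0.027. This family includes LIF signalling, which sustains mESCs. Stat3, the transcription factor below these receptors, had 177.7 CPM in WT and 175.0 CPM in Haspin-KO. The shared receptor chain Il6st had 115.1 and 119.5 CPM. Socs3, the feedback inhibitor, had 112.1 and 101.1 CPM. The LIF receptor Lifr had 94.5 and 112.6 CPM.

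Cd44 encodes the main receptor for hyaluronan, a glycosaminoglycan of the extracellular matrix (ENSMUSG00000005087, chr2:102811141-102901665, - strand). Its counts were 161 and 96 in WT and 25 and 5 in Haspin-KO. WT stood at 7.37 and 5.54 CPM and Haspin-KO at 1.74 and 0.350 CPM, so the groups did not overlap and the Haspin-KO libraries differed from each other by 4.97 times (counting interval 1.87 to 16.6). The mean of 1.05 CPM ± 0.983 (SD, n = 2) in Haspin-KO was 16.2% of the WT mean of 6.45 CPM ± 1.30. Cd44 had a log2 fold change of -2.62 (SE 0.46), with an adjusted p of 0.0216 in edgeR (Benjamini-Hochberg). The call of Cd44 ended without WT replicate 1, at an edgeR adjusted p of 0.0992, and without WT replicate 2, at 0.0577. Leaving out each library moved the fitted change of Cd44 on the log2 scale between -4.18 and -1.90. Of 12 genes for hyaluronan synthesis, its breakdown and CD44 partners, 11 were tested and none was called, with a median log2 fold change of 0.097. Moesin (Msn) and ezrin (Ezr), which link CD44 to actin, had 432.2 and 325.5 CPM in WT and 418.7 and 354.9 CPM in Haspin-KO.

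Thy1 encodes a GPI-anchored glycoprotein of fibroblasts, T cells and neurons (ENSMUSG00000032011, chr9:44043384-44048579, + strand). It had 55 and 48 counts in WT and 37 and 16 counts in Haspin-KO. At 2.58 CPM, Haspin-KO replicate 1 lay between the WT libraries, at 2.52 and 2.77 CPM, whereas Haspin-KO replicate 2 had 1.12 CPM. The mean was 2.64 CPM ± 0.178 (SD, n = 2) in WT and 1.85 CPM ± 1.03 in Haspin-KO. The log2 fold change was -0.51 with a 95% interval of -1.36 to 0.34 and an adjusted p of 0.474 by edgeR, which leaves room for no change as well as for a fall of more than 2-fold. Without Haspin-KO replicate 2 the log2 fold change of Thy1 was -0.04, and without Haspin-KO replicate 1 it was -1.23.

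Nt5e encodes CD73, the ectoenzyme that turns extracellular AMP into adenosine (ENSMUSG00000032420, chr9:88327197-88372092, + strand). Its counts were 670 and 703 in WT and 380 and 561 in Haspin-KO, or 30.7 and 40.6 CPM against 26.5 and 39.3 CPM. The groups overlapped, and replicate 2 was the higher library in both. The mean was 35.6 CPM ± 6.99 (SD, n = 2) in WT and 32.9 CPM ± 9.08 in Haspin-KO. For Nt5e the log2 fold change was -0.11, with a 95% interval of -0.53 to 0.31 and an adjusted p of 0.780 by edgeR, and its sign turned when WT replicate 2 or Haspin-KO replicate 1 was left out, at 0.10 and 0.15. The interval does not reach a 2-fold change in either direction. Of 10 other genes of extracellular nucleotides and adenosine, 4 were tested and none was called. Alkaline phosphatase (Alpl), which also hydrolyses AMP outside the cell and marks mESC colonies, had 277.6 CPM in WT and 241.4 CPM in Haspin-KO with an adjusted p of 0.145 in edgeR.

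Fap encodes fibroblast activation protein, a surface serine protease of reactive fibroblasts (ENSMUSG00000000392, chr2:62500943-62574075, - strand). It had 1 count in WT replicate 1 and 0 counts in the other 3 libraries. Fap was thus under the floor throughout and was not tested.

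**Figure D2:**
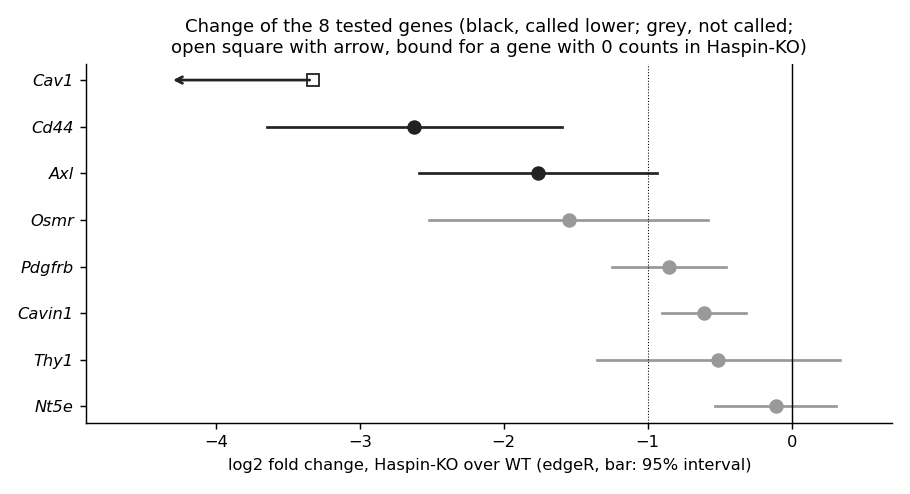
Log2 fold change of Haspin-KO over WT (horizontal axis) for the 8 tested genes, from the edgeR fit, with 95% intervals as bars, black for genes called lower and grey for the rest. The dotted line marks a fold change of 2. Cav1 is drawn at its bound of at least 10.01-fold with an arrow, the points of Cd44, Axl and the uncalled Osmr lie left of the dotted line, and only the intervals of Thy1 and Nt5e cross 0.

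The 10 genes differed widely in level, so per-length values (FPKM) were used to order them. Cavin1 stood highest in WT, at 16.2 FPKM ± 1.98 (SD, n = 2), followed by Nt5e at 4.13 ± 0.785 and Pdgfrb at 2.18 ± 0.318. Axl at 1.21 ± 0.537, Cd44 at 0.95 ± 0.198 and Thy1 at 0.88 ± 0.0566 followed. In this middle group Axl and Cd44 overlapped, as did Cd44 and Thy1. Cav1 came next at 0.605 ± 0.0778 and Osmr at 0.115 ± 0.0212, with Cav2 and Fap at 0.03 and 0.005. In Haspin-KO the first 3 kept their places, at 10.65 ± 1.54, 3.82 ± 0.997 and 1.21 ± 0.0849 FPKM. Thy1 then stood above Axl and Cd44, at 0.62 ± 0.354, 0.365 ± 0.120 and 0.155 ± 0.148 FPKM, and Thy1 and Axl overlapped. The summed level of the 10 genes was 118.8 and 130.6 CPM in WT and 74.2 and 91.7 CPM in Haspin-KO. Cavin1 and Nt5e, which were not called, made up 70.5% and 79.7% of this sum in WT and 81.3% and 89.3% in Haspin-KO. Most of the level was thus theirs. The fall of the sum was not theirs alone, since their share was higher in Haspin-KO.

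The WT libraries were also compared with each other, as values with no test since there is 1 library on each side. WT replicate 1 was higher than WT replicate 2 for 5 of the 8 tested genes, beside 7801 of all 15580 genes tested. The counting interval of the ratio lay above 1 for 3 genes, Axl at 1.902 (1.44 to 2.54), Cd44 at 1.33 (1.03 to 1.73) and Pdgfrb at 1.22 (1.01 to 1.48). It lay below 1 for 2 genes, Nt5e at 0.756 (0.679 to 0.842) and Cavin1 at 0.835 (0.768 to 0.907). For Cav1 the ratio was 1.20 (0.759 to 1.93), for Osmr 1.26 (0.720 to 2.26) and for Thy1 0.909 (0.606 to 1.37), and at these counts no difference was detectable. The median log2 ratio was 0.28, with a range from -0.40 to 0.93, while the median of all genes tested was 0.00043. Of all genes tested with a mean of at least 20 WT counts, the middle 90% lay between -0.41 and 0.49, so Axl alone lay outside that range. Between the Haspin-KO libraries, Cavin1 and Nt5e were again lower in replicate 1, at ratios of 0.796 (0.705 to 0.899) and 0.673 (0.590 to 0.768). Cd44 was again higher in replicate 1, as given above, and Axl had a ratio of 1.59 (0.882 to 2.93). In all, 5 of the 7 genes with a count in every library were higher in the same replicate number of both groups, beside 61.6% of the genes tested with such counts.

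**Figure D3:**
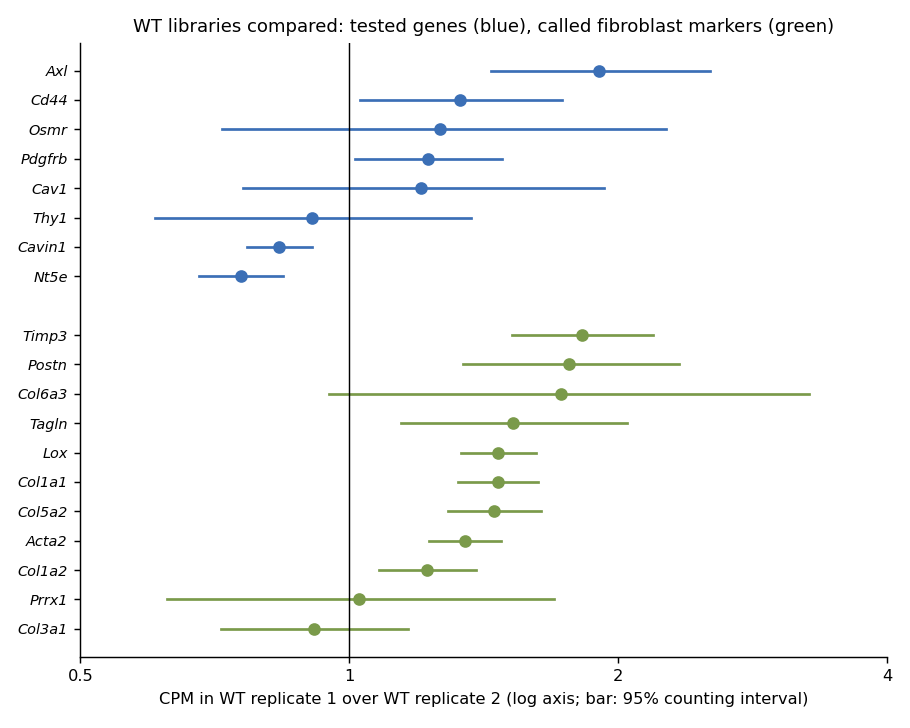
Ratio of CPM in WT replicate 1 to WT replicate 2 (horizontal log axis) with 95% counting intervals as bars, for the 8 tested genes in blue and the 11 fibroblast markers called lower in green. Axl, Cd44 and Pdgfrb lie above 1 and Cavin1 and Nt5e below 1 with their whole intervals, and 10 of the 11 fibroblast markers lie above 1.

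Some markers of fibroblasts were also lower in Haspin-KO. Of 24 fibroblast markers, 18 were tested. Of these, 11 were called lower in Haspin-KO, beside 0.501% of all genes tested, 0 were called higher, beside 0.327%, and 7 were not called. The median log2 fold change of the 18 was -2.71. Of the 11 called, 6 (Col1a2, Col3a1, Col6a3, Postn, Lox and Prrx1) passed the count filter through the WT libraries alone. The count of calls and the median are thus partly set by the filter. The list was also chosen with earlier results of these data known. Col1a1, a chain of type I collagen, had 1063 and 575 counts in WT and 24 and 24 counts in Haspin-KO, or 4.10% of the WT level in CPM. Lox, which cross-links collagen, had 1215 and 657 counts in WT and 0 and 0 in Haspin-KO, at least 223-fold lower. Postn, encoding the matrix protein periostin, had 171 and 77 counts in WT and 0 and 0 in Haspin-KO, at least 29.3-fold lower. Acta2, smooth muscle actin, was at 9.30% of WT. Col5a2, Timp3 and Tagln, also called lower, were at 13.3%, 17.8% and 40.9% of WT. Of the 11 called markers, 5 were at or under the floor in both Haspin-KO libraries and the other 6 retained between 1.82% and 40.9% of WT, with a median of 11.3%. A call required a fold change over 2, so the low values of these 6 follow from their choice. The 7 tested markers without a call retained between 82.4% (Col5a1) and 101.4% (Fn1) of WT. Of the surface and caveolar genes, called or not, Cd44 retained 16.2%, Axl 29.7%, Osmr 34.1% and Pdgfrb 55.6% of the WT level. Cavin1 retained 65.6%, Thy1 69.9% and Nt5e 92.3%, and the libraries of Thy1 and Nt5e overlapped between the groups.

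The fibroblast list was uneven in the same libraries. Fn1, Vim and Sparc, which many cell types express, were the 3 most abundant of the list and were not called. Their log2 fold changes were 0.02, -0.02 and 0.01. The other tested markers without a call, Mmp2, Fbn1, Twist1 and Col5a1, were at 99.1%, 93.3%, 88.7% and 82.4% of WT. The summed level of the list was 2416 and 2380 CPM in WT and 2215 and 2177 CPM in Haspin-KO, and Fn1 gave 1601 CPM of it in WT and 1623 CPM in Haspin-KO. Lum, a proteoglycan of fibroblasts, had 0 counts in all 4 libraries, and Dcn had 4 and 2 counts in WT and 0 and 0 in Haspin-KO. Of the 11 called markers, 10 were higher in WT replicate 1 than in WT replicate 2, beside 7801 of all 15580 genes tested. Their median ratio was 1.47, with a range from 0.914 to 1.82 and 8 counting intervals above 1. The part of fibroblast RNA in the differences of the surface and caveolar genes was not tested. In bulk RNA, fewer cells of a type and less RNA per cell cannot be told apart. Endothelial markers gave 0 calls among 4 tested of 6, with Emcn at 0 counts in all libraries. Blood cell markers gave 0 calls with 1 tested of 6, and Ptprc, Adgre1, Tyrobp and Lyz2 were at 0 counts in all libraries. Primitive endoderm markers gave 0 calls among 4 tested of 6. The summed levels of these 3 lists were 158.6 and 145.3, 14.4 and 11.3, and 40.4 and 33.4 CPM in WT and 167.1 and 152.8, 10.9 and 10.6, and 41.4 and 29.6 CPM in Haspin-KO.

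Of 19 other surface markers of mesenchymal cells, 18 were tested, 1 was called lower and 0 were called higher, with a median log2 fold change of -0.0034. The gene called was Cspg4, which encodes the pericyte proteoglycan NG2 and had 26 and 14 counts in WT and 2 and 0 counts in Haspin-KO, so it too was tested through the WT libraries alone. Its edgeR adjusted p was 0.0460, and the ratio of the pooled CPM was 14.6 with a counting interval of 3.79 to 124.9. In the list, 3 of the 19 were at or under the floor in both Haspin-KO libraries: Cspg4, Itga11 and Vcam1. Itga11, a collagen-binding integrin subunit, had 23 and 11 counts in WT and 2 and 1 counts in Haspin-KO with an edgeR adjusted p of 0.0586. Vcam1, an adhesion molecule, had 12 and 7 counts in WT and 0 and 2 counts in Haspin-KO and was not tested. Pdpn and Cd248, markers of stromal cells, were at 65.4% and 54.7% of WT and were not called, with edgeR adjusted p of 0.255 and 0.404. Itgav and Mcam went the other way, at 129.4% and 128.5% of WT, with edgeR adjusted p of 0.0854 and 0.177. Over the 18 tested, both Haspin-KO libraries lay below both WT libraries in 5, beside 4198 of all 15580 genes tested. They lay above both WT libraries in 6, beside 3945. The abundant integrin subunits Itgb1 and Itga5 had 267.4 and 134.7 CPM in WT and 283.4 and 126.5 CPM in Haspin-KO. The endocytic receptor Lrp1 had 184.2 and 198.3 CPM and endoglin (Eng) had 104.9 and 120.6 CPM, and none of these 4 abundant genes was called.

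**Figure D4:**
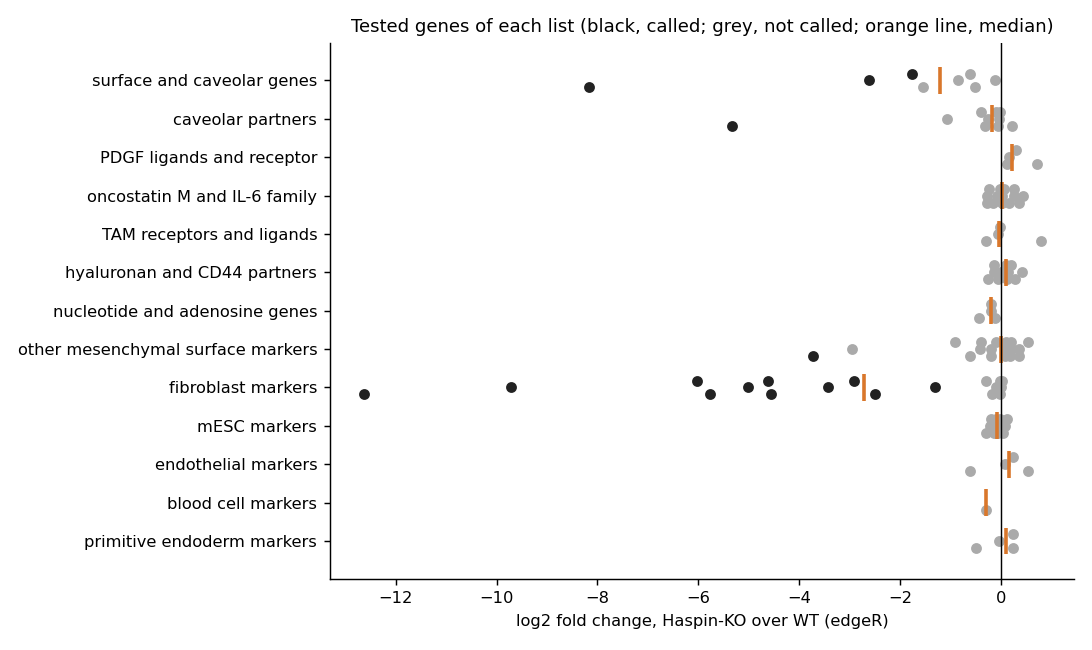
Log2 fold change of Haspin-KO over WT (horizontal axis, edgeR) for every tested gene of each list, black for called genes and grey for the rest, with the median of each list as an orange line. Points of genes with 0 counts in Haspin-KO, such as Cav1 and Lox, are fitted values and no bound. The median is -1.20 for the surface and caveolar genes, -2.71 for the fibroblast markers and between -0.29 and 0.23 for the other lists.

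The mean profile of the 8 tested genes over the 4 libraries was then compared with the profile of every other gene tested. Likeness was the Euclidean distance between profiles of log2(CPM + 0.5), each centred on its mean over the libraries. The 5 nearest genes were Ltbp3, Ccn4, Rhbdl2, F3 and Lgals1, at distances of 0.0645, 0.0806, 0.0855, 0.134 and 0.144. Ltbp3 encodes a binding protein of latent TGF-beta, and Ccn4 a matricellular protein. F3 is tissue factor, and Lgals1 is galectin-1. Of these, Ccn4, F3 and Lgals1 were called lower, as the choice by likeness to a profile that is lower in Haspin-KO favours. Lgals1 was the most abundant, with 65.5 and 54.5 CPM in WT and 29.9 and 27.3 CPM in Haspin-KO. Rhbdl2 had 18 and 13 counts in WT and 2 and 1 counts in Haspin-KO, under the floor in both Haspin-KO libraries.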

How the data were processed

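RNA-seq covered 2 WT and 2 Haspin-KO libraries, grouped by the genotype in their labels. The authors trimmed reads with cutadapt (1.9.1), mapped them to mm10 with HISAT2 (2.0.1) and deposited raw counts per gene. HTSeq (0.6.1) stands in the submitters' processing notes without a role, and the strand setting and annotation release are not given in the sources used here. The deposited FPKM equal counts per exonic length and library total within rounding (largest difference 0.005). The authors' GO and KEGG columns were used as labels.

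Counts were tested over all genes with edgeR (4.0.16, R 4.3.3): default count filter (a cutoff of 0.627 CPM in at least 2 libraries), TMM, quasi-likelihood test without covariates, Benjamini-Hochberg adjustment over 15580 genes, and calls at an adjusted p under 0.05 with a fold change over 2. The paper names DESeq2, which was used here (1.42.0) as an alternative, as was limma (3.58.1), fitted to log2(FPKM + 0.1) where 2 or more libraries reached 0.5 FPKM. Other alternatives were other scalings, no filter, at least 10 counts in every library, thinning, the replicate block and leaving out each library. The tests were tested on simulated data. Ratios of 2 libraries have exact conditional binomial 95% intervals. Library totals of 14207828 to 21834847 counts set the precision. Named genes were all 10 genes and those called in the other lists. Where none or few were called, up to 4 with the highest mean CPM were named. Further genes were named after their values were seen. These were Pdgfra, Mertk, Gas6, Ehd2, Cav3, Itga11, Vcam1, Pdpn, Cd248, Itgav and Mcam. They also included Col5a1, Mmp2, Fbn1, Twist1, Lum, Dcn, Emcn and the blood cell markers at 0. The 10 genes, the lists and the motifs were chosen with earlier results of these data known.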

Additional observations from a re-analysis of the deposited data

How the results depend on the processing

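The number of the 8 genes called lower, 3 in the edgeR fit, was 1 with at least 10 counts required in every library (which removes Cav1, Cd44 and Osmr), 1 with limma and 5 without a minimum fold change. Leaving out each library gave between 1 and 3. DESeq2 called 2, with no adjusted p for Cav1 and Osmr. None was called higher in any alternative. Cav1 was called in all 10 alternatives that gave it a test. Each admitted it through its WT counts alone, since both Haspin-KO libraries had 0 counts, so these calls are descriptions. Nt5e turned sign without WT replicate 2 (0.10) and without Haspin-KO replicate 1 (0.15), and its leave-one-out range was -0.43 to 0.15. The median log2 ratio of the WT libraries was 0.26 to 0.29 under the other scalings.

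Over all genes tested, 78 were called lower and 51 higher. These counts were 140 and 125 with no filter, 236 and 154 without a minimum fold change, and 21 and 21 with limma. The lower count was 36 with at least 10 counts in every library and 45 with DESeq2. Leaving out each library gave 37 to 150 lower and 17 to 157 higher. With 2 libraries per group the spread is poorly known, and genes near the floor, Cav2 and Fap first, are limited by depth. The cause of these shifts was not tested.

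A fit that adds the replicate block called 167 genes lower and 240 higher, and 4 of the 8 genes lower, Osmr being added at an edgeR adjusted p of 0.00802. With 2 pairs and no label that ties equal numbers to a shared batch, the libraries share only a number.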
